A study of Mus musculus with 9 samples.

Results

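Leukotriene and lipoxygenase pathway genes were followed in the mouse tibia after fracture: Pla2g4a, Alox5, Alox5ap, Lta4h, Ltc4s, Ltb4r1, Cysltr1, Cysltr2, Alox12 and Alox15. They were taken by name from the authors' table of normalized signals, which holds 22354 gene symbols, and all 10 had a row. A symbol listed more than once was represented by its row of highest mean signal over the 9 arrays. The arrays were GeneChip Mouse Gene 2.0 ST, which read whole transcripts with many probes per gene, and each value is a log2 signal, so a log2 difference of 1 is a 2-fold change in signal.

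The 9 female mice were assigned at random to 3 groups with 3 arrays each. Control mice had neither surgery nor NSAID, and their tissue is labelled as tibia without fracture. Their sample titles nevertheless read Tibia Hematoma Control. Active mice had an open tibia fracture and subcutaneous carprofen, an NSAID that inhibits the COX enzymes, at 20 mg/kg in the active phase (ZT13, counted from lights on) for 3 days. Resting mice had the same surgery, at the same time of day, and the same dose in the resting phase (ZT2). Tissue was collected at ZT6, for the fractured mice 78 hours after surgery. The methods put collection over 18 hours after the last dose of active mice and over 30 hours after that of resting mice. These hours do not follow exactly from the stated ZT times. Dosing phase and time since the last dose cannot be told apart. From each fractured leg the middle stretch of the tibia was taken with its callus and hematoma. The methods do not state which stretch was taken from control legs. The design held no fracture group without NSAID, so fracture and NSAID cannot be told apart in the comparisons with the control. The labels give an age of 2 months, whereas the study's methods give C57BL/6j mice of 4 months for its first experiment. The methods speak both of individual mice and of RNA pools, so the p-values measure only the spread between these arrays, whose number limits the precision.

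Leukotrienes are lipid mediators made from arachidonic acid by white blood cells. Cytosolic phospholipase A2 releases arachidonic acid from membranes, and 5-lipoxygenase, helped by its activating protein, turns it into LTA4. LTA4 hydrolase then makes LTB4, which attracts neutrophils, while LTC4 synthase joins LTA4 to glutathione and begins the cysteinyl leukotrienes, which act on vessels and smooth muscle. The remaining lipoxygenases of the set oxygenate the same fatty acid at other carbons in platelets, eosinophils and macrophages. The COX enzymes draw on the same arachidonic acid but are not members of this pathway.

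Promoter windows are shown for 4 genes that fell in both fracture groups: the oxygenase Alox5, the hydrolase Lta4h, the LTB4 receptor Ltb4r1 and the platelet enzyme Alox12. The windows are from RefSeq on GRCm38.p6, run 5′ to 3′ on the gene's strand from 250 bases before to 50 bases after the annotated start, and exist for 7 of the 10 genes. Alox5ap, Cysltr1 and Alox15 had none in the table. Capitals mark matches, on either strand, to the motifs searched.
Alox5, chr6:116461129-116461428, minus strand: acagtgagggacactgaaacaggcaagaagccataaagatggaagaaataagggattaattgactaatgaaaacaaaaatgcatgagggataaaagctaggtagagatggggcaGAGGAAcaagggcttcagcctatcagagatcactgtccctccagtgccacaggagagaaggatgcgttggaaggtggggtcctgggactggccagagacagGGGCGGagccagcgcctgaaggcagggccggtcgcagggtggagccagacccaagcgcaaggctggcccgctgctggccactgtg
Lta4h, chr10:93453146-93453445, plus strand: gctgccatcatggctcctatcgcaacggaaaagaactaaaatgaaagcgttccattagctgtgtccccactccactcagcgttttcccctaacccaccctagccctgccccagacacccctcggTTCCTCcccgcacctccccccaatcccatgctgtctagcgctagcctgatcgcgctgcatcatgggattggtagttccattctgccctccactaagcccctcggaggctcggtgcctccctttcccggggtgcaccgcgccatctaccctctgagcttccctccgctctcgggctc
Ltb4r1, chr14:55765712-55766011, plus strand: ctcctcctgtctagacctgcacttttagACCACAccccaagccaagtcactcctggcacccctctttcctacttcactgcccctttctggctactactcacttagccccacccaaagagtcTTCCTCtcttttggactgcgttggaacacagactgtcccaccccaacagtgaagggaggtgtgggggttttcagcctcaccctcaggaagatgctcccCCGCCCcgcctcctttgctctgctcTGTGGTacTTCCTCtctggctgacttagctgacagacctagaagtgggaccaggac
Alox12, chr11:70255321-70255620, minus strand: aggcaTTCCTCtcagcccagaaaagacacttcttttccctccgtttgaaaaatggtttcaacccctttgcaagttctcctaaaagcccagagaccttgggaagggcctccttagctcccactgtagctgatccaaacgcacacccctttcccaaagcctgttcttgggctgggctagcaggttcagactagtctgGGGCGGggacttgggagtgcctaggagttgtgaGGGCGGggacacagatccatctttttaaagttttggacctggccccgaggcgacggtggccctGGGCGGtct
Each of the printed windows holds GAGGAA or its reverse complement, the core of the PU box named for the white-cell factor PU.1, at position -136 in Alox5, -126 in Lta4h, -129 and 3 in Ltb4r1 and -245 in Alox12. The same letters occur in 28.1% of the 32544 mouse promoter windows of this length. The GC box GGGCGG, found in 35.9% of windows, occurs 3 times in Alox12 and 1 time each in Alox5 and Ltb4r1, and the RUNX core TGTGGT, found in 16.7%, occurs 2 times in Ltb4r1. Among the windows not printed, Ltc4s, which passed in neither comparison with the control, holds GAGGAA and TGTGGT. Cysltr2, which also fell in both fracture groups, holds a STAT6 type motif (6.98% of windows) but no GAGGAA. The presence of GAGGAA in each printed window therefore depends on which windows were printed. Of the 2 Pla2g4a windows, 1 holds TATAAA (13.6%) and neither holds GAGGAA. The clock E-box CACGTG (7.17% of windows) and the C/EBP pair TTNNGCAA (10.8%) are in none of the 7 genes' windows. Both strands were searched, no 2 of the printed matches overlap, and a match is a run of letters, not a site shown to be bound.

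Of the 10 genes, 7 fell and 1 rose in the active group against the control (adjusted p under 0.05 in limma), where 23.9% of all 24367 rows passed, 12.1% lower and 11.8% higher. In the resting group 6 fell and 1 rose, where 19.1% of rows passed, 10% lower and 9.08% higher. The arrays of 7 genes lay wholly below the control in each comparison, as did 17.6% (active) and 17.8% (resting) of all rows, and those of 1 gene wholly above it, as did 18.9% and 17.6%. Over the 10 genes the median log2 difference was -1.04 for active and -0.63 for resting, beside 0.0246 and 0.0232 over all rows. Both comparisons share the 3 control arrays. In bulk tissue, fewer cells of a type and less RNA per cell cannot be told apart. Alox12, Alox15 and Cysltr2 had the largest falls of the set in both comparisons, and Cysltr1 was the member that rose.

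**Figure D1:**
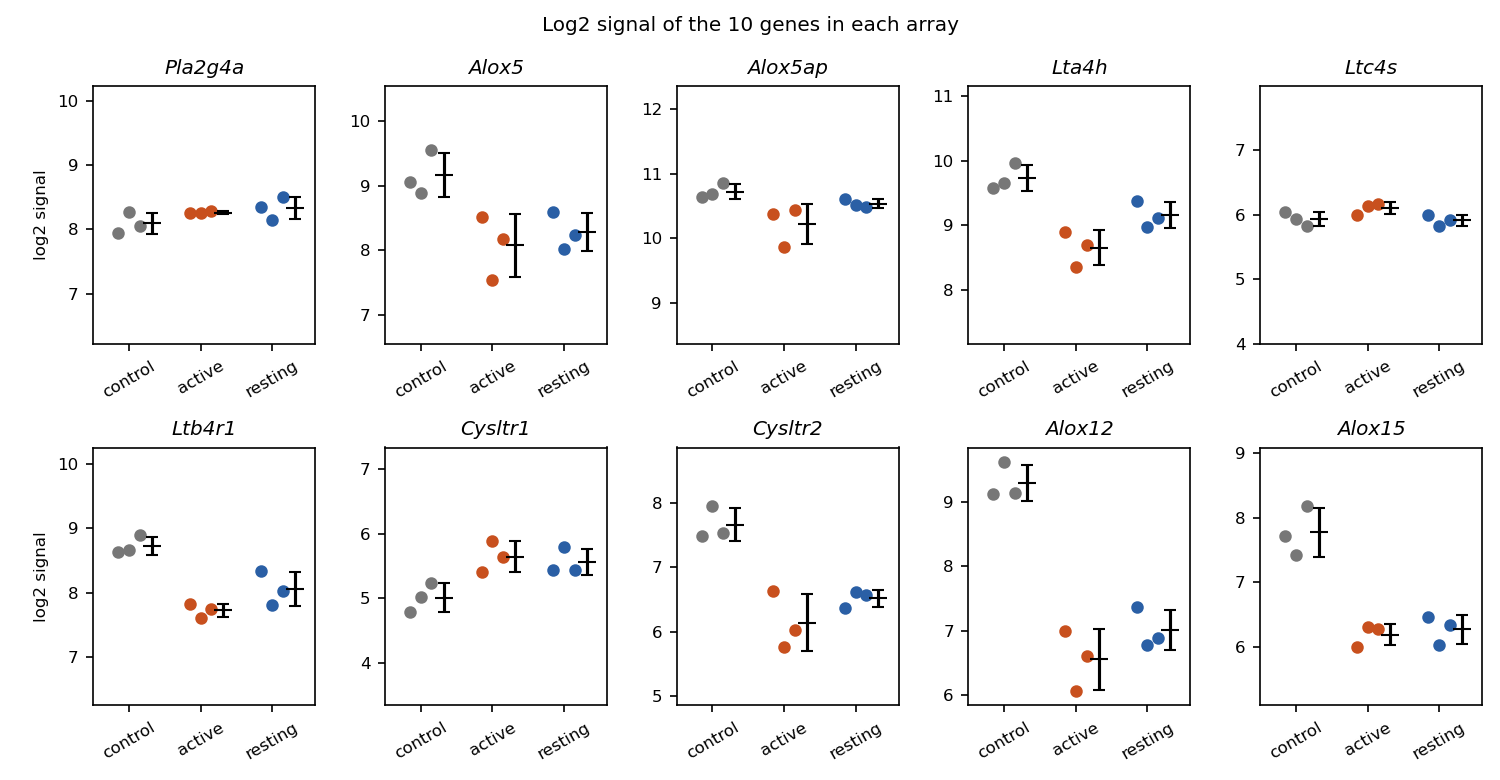
Log2 signal (y axis) of each of the 10 genes in every array, by group on the x axis; points are arrays in the order of replicates 1 to 3, and the bar beside them is the mean with 1 SD (n = 3). Each panel spans the same number of log2 units. Control points lie above all fractured points for Alox5, Alox5ap, Lta4h, Ltb4r1, Cysltr2, Alox12 and Alox15, and below them for Cysltr1.

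Pla2g4a encodes the cytosolic phospholipase A2 that frees arachidonic acid. Its log2 signals were 7.95, 8.27 and 8.06 in control replicates 1 to 3, 8.25, 8.25 and 8.29 in the active group and 8.35, 8.15 and 8.50 in the resting group. The groups overlapped. The difference from the control was 0.17 (SE 0.12, adjusted p = 0.37) in the active group and 0.24 (SE 0.12, adjusted p = 0.22) in the resting group, so neither passed the test in limma.

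Alox5, the 5-lipoxygenase itself, fell in both fracture groups. Its log2 signals were 9.06, 8.88 and 9.55 in the control, 8.51, 7.54 and 8.17 in the active group and 8.59, 8.02 and 8.23 in the resting group. All 6 fractured tibiae were below all 3 controls, and active replicate 2 was the lowest. The log2 difference was -1.09 (SE 0.25, adjusted p = 0.0091 in limma) in the active group, 47.0% of the control signal, and -0.88 (SE 0.25, adjusted p = 0.032) in the resting group. The resting call was lost without control replicate 1 (adjusted p = 0.063), control replicate 3 (0.13), resting replicate 2 (0.12) or resting replicate 3 (0.094). A second row named Alox5, of lower signal, gave -0.59 (adjusted p = 0.087) in the active and -0.44 (adjusted p = 0.23) in the resting comparison.

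Alox5ap encodes the activating protein FLAP, the membrane partner that presents arachidonic acid to 5-lipoxygenase. It fell in the active group. Its log2 signals were 10.64, 10.68 and 10.85 in the control, 10.37, 9.87 and 10.43 in the active group and 10.61, 10.51 and 10.48 in the resting group. The controls stood above all fractured arrays, though control replicate 1 was close to resting replicate 1. The difference was -0.50 (SE 0.15, adjusted p = 0.029 in limma) in the active group and -0.19 (SE 0.15, adjusted p = 0.44) in the resting group. The active call was lost without control replicate 1 (adjusted p = 0.0504), control replicate 2 (0.062), control replicate 3 (0.11) or active replicate 2 (difference -0.33, adjusted p = 0.065). Its second row gave -0.59 (adjusted p = 0.048) and -0.34 (adjusted p = 0.28). The study itself singled out Alox5ap on these arrays, so its place here is not independent evidence. It reported a stronger downregulation with active than with resting dosing. Here active minus resting had that direction, at -0.31 (1.24-fold, unadjusted p = 0.057, adjusted p = 0.83 in limma). This is short of the study's fold of 1.5 and p under 0.05.

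Lta4h, the hydrolase that makes LTB4, fell in both groups. Its log2 signals were 9.58, 9.65 and 9.96 in the control, 8.90, 8.36 and 8.70 in the active group and 9.37, 8.97 and 9.12 in the resting group. The groups formed 3 steps with no overlap, control highest and active lowest. Against the control, Lta4h was lower by a log2 difference of -1.08 (SE 0.16, adjusted p = 7.5e-04 in limma) in the active group and -0.57 (SE 0.16, adjusted p = 0.032) in the resting group. The resting call was lost without control replicate 2 (adjusted p = 0.062), control replicate 3 (0.13), resting replicate 2 (0.12) or resting replicate 3 (0.097).

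Ltc4s, the synthase at the entry to the cysteinyl branch, gave log2 signals of 6.04, 5.93 and 5.83 in the control, 5.99, 6.14 and 6.16 in the active group and 5.99, 5.83 and 5.91 in the resting group. The groups overlapped. The difference was 0.17 (SE 0.10, adjusted p = 0.30) in the active and -0.02 (SE 0.10, adjusted p = 0.93) in the resting group in limma. Of the 4 synthesis genes, 3 passed in the active comparison and 2 in the resting comparison, beside 23.9% and 19.1% of all rows.

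Ltb4r1, the high-affinity LTB4 receptor of neutrophils and other white cells, fell in both groups. Log2 signals were 8.63, 8.66 and 8.89 in the control, 7.82, 7.61 and 7.74 in the active group and 8.33, 7.81 and 8.02 in the resting group. No fractured array reached the lowest control. The difference was -1.01 (SE 0.14, adjusted p = 4.2e-04 in limma) in the active and -0.68 (SE 0.14, adjusted p = 0.0063) in the resting group. Ltb4r2, the low-affinity receptor and its neighbour on chromosome 14, had differences of -0.13 (adjusted p = 0.40) and -0.08 (adjusted p = 0.66).

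The cysteinyl leukotriene receptors moved in opposite directions. Cysltr2 gave log2 signals of 7.49, 7.95 and 7.53 in the control, 6.63, 5.76 and 6.03 in the active group and 6.37, 6.62 and 6.57 in the resting group, with every fractured array below every control. It fell by a log2 difference of -1.52 (SE 0.21, adjusted p = 3.5e-04 in limma) in the active and -1.14 (SE 0.21, adjusted p = 0.003) in the resting group. Cysltr1, the receptor for LTD4, gave 4.78, 5.01 and 5.23 in the control, 5.41, 5.89 and 5.63 in the active group and 5.44, 5.79 and 5.44 in the resting group. Every fractured array was above every control, by a log2 difference of 0.64 (SE 0.16, adjusted p = 0.015) in the active and 0.55 (SE 0.16, adjusted p = 0.038) in the resting group.

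The rise of Cysltr1 rested on low signals. Its row lay among the 40% of rows with the lowest mean signal, and the gene overlaps Gm5127 in the RefSeq annotation of the X chromosome. The active call was lost without control replicate 1 (adjusted p = 0.063 in limma) or active replicate 2 (0.058), and the resting call without control replicate 1 (0.13), control replicate 2 (0.092), active replicate 3 (0.055), resting replicate 2 (0.15) or resting replicate 3 (0.063), while its direction was the same each time.

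Alox12, the 12-lipoxygenase of platelets, had the largest fall. The arrays gave log2 signals of 9.12, 9.62 and 9.13 in the control, 7.0, 6.06 and 6.60 in the active group and 7.36, 6.78 and 6.89 in the resting group. The lowest control lay far above the highest fractured array. The difference was -2.74 (SE 0.24, adjusted p = 2.2e-05 in limma) in the active group, 15% of the control signal, and -2.28 (SE 0.24, adjusted p = 9.7e-05) in the resting group, 20.6% of it.

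Alox15 encodes the 12/15-lipoxygenase of mouse eosinophils and resident macrophages. Log2 signals were 7.72, 7.42 and 8.18 in the control, 6.0, 6.30 and 6.27 in the active group and 6.46, 6.02 and 6.33 in the resting group. The fractured groups were low and lay over each other. The difference was -1.59 (SE 0.19, adjusted p = 1.5e-04 in limma) in the active and -1.51 (SE 0.19, adjusted p = 2.9e-04) in the resting group, 3.0-fold and 2.84-fold lower. Alox12 and Alox15 lie on chromosome 11 with Alox12e, an epidermal lipoxygenase, between them, and Alox12e had differences of -0.13 (adjusted p = 0.55) and -0.26 (adjusted p = 0.22). The calls of Alox12, Alox15, Cysltr2 and Ltb4r1 were kept in limma whichever array was left out. They did not all hold in the methods' t-test with adjustment, which called 3 members in the active and 2 in the resting comparison. The share of all rows past that test is not given here.

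**Figure D2:**
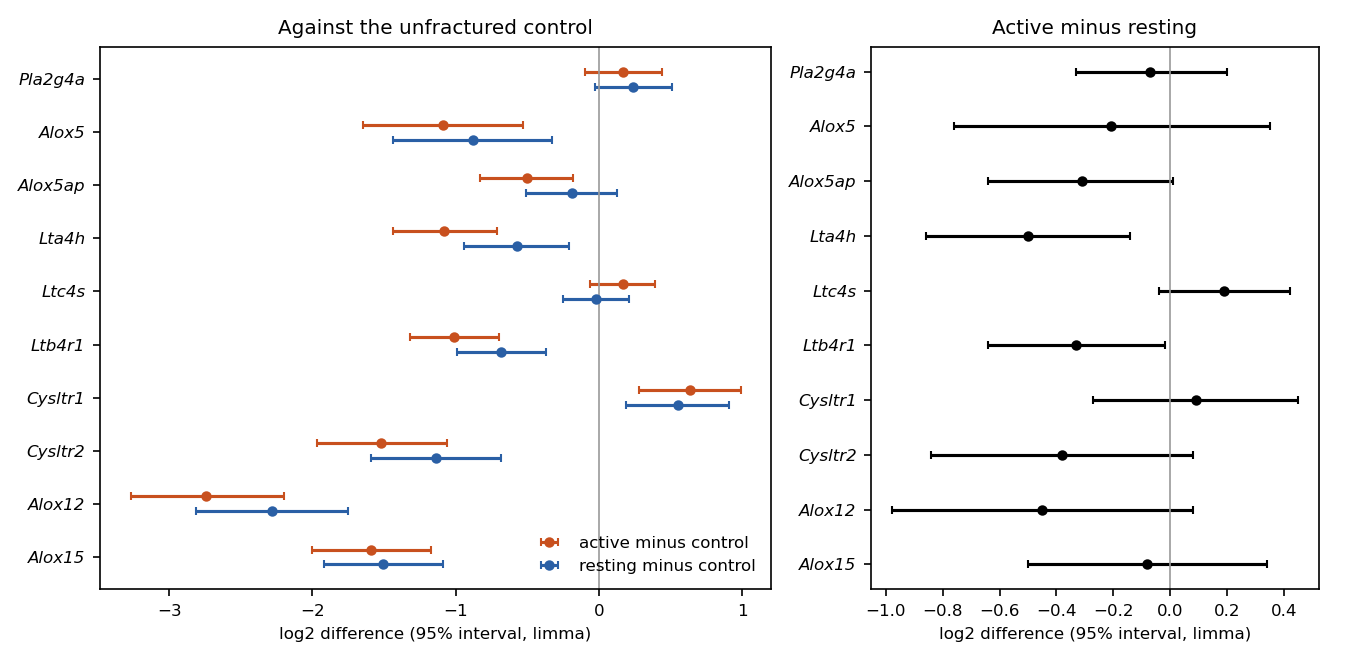
Log2 differences (x axis) of the 10 genes with 95% intervals from limma, against the control on the left (active and resting in separate colours) and active minus resting on the right. Alox12 lies farthest from 0 on the left (-2.74 and -2.28), Cysltr1 is on the positive side (0.64 and 0.55), and on the right the intervals of Lta4h (-0.86 to -0.14) and Ltb4r1 (-0.64 to -0.02) leave out 0.

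Between the fracture groups, which differed in dosing phase, 0 of the 10 genes passed an adjusted p under 0.05 in limma, as did 0% of all rows. With the methods' t-test, 0 passed after adjustment and 0 at an unadjusted p under 0.05. In limma 2 genes, Lta4h and Ltb4r1, were lower in the active group at an unadjusted p under 0.05, where 3.01% of rows were lower, 3.1% were higher and 6.11% passed in either direction. The sign of the difference was lower in the active group for 8 of 10 genes, beside 51.5% of all rows, and the median was -0.26 beside -0.0055.

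Lta4h showed the largest difference between active and resting, -0.50 on the log2 scale (SE 0.16, 95% interval -0.86 to -0.14, adjusted p = 0.67 in limma). The 3 active arrays, 8.36 to 8.90, lay below the 3 resting arrays, 8.97 to 9.37, and the two-sided exact permutation p was 0.1, the smallest that 3 arrays against 3 can give. Alox5ap likewise did not overlap, with a difference of -0.31 (95% interval -0.64 to 0.01, adjusted p = 0.83 in limma). These were the 2 genes with no overlap, both lower, where 4.77% of rows were so separated in that direction. Ltb4r1 differed by -0.33 (95% interval -0.64 to -0.02, adjusted p = 0.81 in limma), but active replicate 1 (7.82) overlapped resting replicate 2 (7.81).

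For the other genes the intervals of the active minus resting difference included 0. They ran from -0.98 to 0.08 for Alox12, from -0.84 to 0.08 for Cysltr2, from -0.76 to 0.35 for Alox5 and from -0.50 to 0.34 for Alox15. Pla2g4a had an interval of -0.33 to 0.20, Cysltr1 of -0.27 to 0.45 and Ltc4s, the member with the highest difference, of -0.04 to 0.42. A log2 difference of 1 in either direction lay outside each of these intervals.

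Active replicate 2 was the lowest of all 9 arrays for 6 of the 10 genes: Alox5, Alox5ap, Lta4h, Ltb4r1, Cysltr2 and Alox12. It also had the lowest array weight in limma (0.54) and the lowest means of 13 neutrophil marker genes (9.72), 10 erythroid genes (6.23) and 10 B lymphocyte genes (6.14). Its platelet and megakaryocyte mean (7.42) was above that of active replicate 3 (7.29), and its eosinophil mean (6.14) above that of active replicate 1 (5.95). Its mast cell mean (6.16) was the highest of the active arrays. Without active replicate 2, 0 genes differed between active and resting at an unadjusted p under 0.05, and the log2 difference was -0.35 for Lta4h, -0.27 for Ltb4r1, -0.14 for Alox5ap and 0.06 for Alox5. Without active replicate 1, 5 genes passed that threshold, and without resting replicate 1, 0 did. Without control replicate 1, control replicate 2 or resting replicate 3 the count was 1. The share of all rows past this threshold was not counted with an array left out, so these counts have no background beside them. The part of any array's cell content in these values was not tested.

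Of 43 further genes of arachidonic acid release, leukotriene handling and related lipids, 12 passed an adjusted p under 0.05 in limma in the active comparison (4 higher and 8 lower) and 10 in the resting comparison (2 higher and 8 lower), beside 23.9% and 19.1% of all rows. Their median difference was -0.09 in both comparisons, and the medians over all rows were 0.0246 and 0.0232. Dpep2, a dipeptidase that cleaves LTD4 to LTE4, rose most. The arrays gave log2 signals of 6.45, 6.31 and 6.41 in the control, 8.09, 7.78 and 7.94 in the active group and 7.60, 7.87 and 8.08 in the resting group, a difference of 1.55 (SE 0.14, adjusted p = 2.1e-05) and 1.46 (SE 0.14, adjusted p = 4.6e-05). Every fractured array was above every control. Its second row rose as well, by 1.81 and 1.37. Abcc1, the transporter that carries LTC4 out of cells, rose by 0.51 (adjusted p = 0.011) and 0.40 (adjusted p = 0.041).

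On the same cysteinyl branch, Mgst2, a microsomal enzyme that can also make LTC4, fell by 1.0 (adjusted p = 5.2e-04 in limma) in the active and by 0.58 (adjusted p = 0.016) in the resting group. Its relative Mgst3 fell by 0.30 (adjusted p = 0.049) and by 0.60 (adjusted p = 0.0017), and the transporter Abcc4 fell in the active group, with -0.65 (adjusted p = 0.011) and -0.40 (adjusted p = 0.11). This branch was measured by 9 genes. In the active comparison 2 rose and 3 fell, beside 11.8% of all rows higher and 12.1% lower. In the resting comparison 2 rose and 2 fell, beside 9.08% and 10%. The counts differ by Abcc4, whose difference between active and resting was -0.25 (adjusted p = 0.93 in limma).

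Cyp4f18, which inactivates LTB4 in mouse neutrophils, fell by 1.01 (adjusted p = 8.9e-04 in limma) and by 0.56 (adjusted p = 0.031). Fpr2, a neutrophil receptor for formyl peptides and lipoxin, fell by 0.96 (adjusted p = 5.4e-04) and by 0.53 (adjusted p = 0.022). Gpx1, which reduces lipid peroxides, fell by 1.13 (adjusted p = 8.9e-05) and by 0.77 (adjusted p = 0.0014).

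Among 14 further phospholipase genes, Pla2g4c, a cytosolic relative of Pla2g4a, fell by 1.18 (adjusted p = 2.5e-04 in limma) and by 1.03 (adjusted p = 8.7e-04). Pla2g4e rose in the active group (0.50, adjusted p = 0.018) and had a difference of 0.27 (adjusted p = 0.21) in the resting group, and Pla2g12a fell in the resting group (-0.43, adjusted p = 0.016) and had -0.16 (adjusted p = 0.35) in the active group. Of the genes that load arachidonic acid into membranes, Acsl4 rose in the active group (0.44, adjusted p = 0.038) and had 0.31 (adjusted p = 0.16) in the resting group, and Lpcat3 fell in both (-0.84 and -0.63, adjusted p = 2.7e-04 and 0.0024). None of the 4 other lipoxygenases and neither 5-lipoxygenase partner, Cotl1 or Mapkapk2, passed in either comparison.

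Between active and resting, 0 of the 43 genes passed after adjustment in limma. At an unadjusted p under 0.05, Pla2g12a (0.27), Mgst3 (0.30) and Ephx2 (0.37), an epoxide hydrolase, were higher in the active group, and Mgst2 (-0.42), Cyp4f18 (-0.45), Fpr2 (-0.43) and Gpx1 (-0.36) were lower. That is 7 of 43 genes, where 6.11% of all rows passed.

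**Figure D3:**
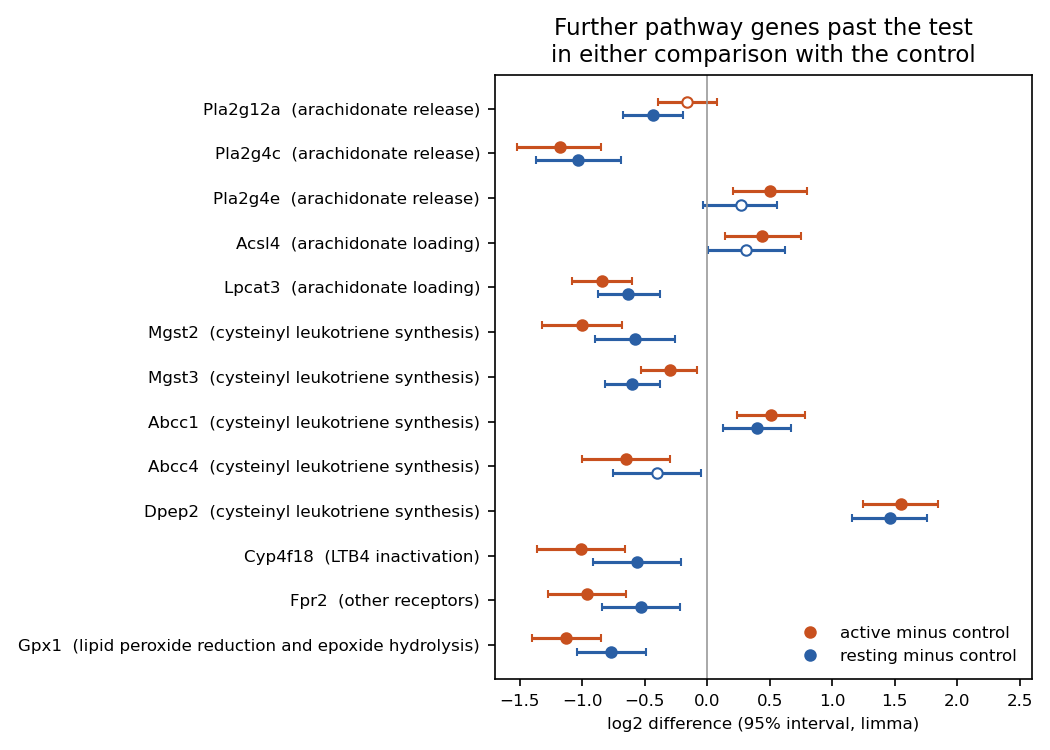
Log2 differences from the control (x axis, with 95% intervals from limma) for the 13 of 43 further pathway genes that passed an adjusted p under 0.05 in at least 1 comparison; filled points passed, open points did not. Dpep2 stands highest (1.55 and 1.46) and Pla2g4c lowest (-1.18 and -1.03).

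Marker genes of cell types and tissues were read beside the members, in 10 lists. The 13 neutrophil markers had a mean log2 signal of 11.15 to 11.39 in the control arrays, 9.72 to 10.38 in the active and 10.60 to 10.85 in the resting arrays. In limma all 13 fell against the control under active dosing and 5 under resting dosing, beside 12.1% and 10% of all rows lower. The sign of the difference was lower for all 13 in both comparisons. Ly6g, a surface protein of neutrophils, differed from the control by -1.0 (adjusted p = 0.0096) and -0.56 (adjusted p = 0.13), and S100a8, a subunit of calprotectin, by -0.51 (adjusted p = 0.0041) and -0.13 (adjusted p = 0.46). Between active and resting, 0 of the 13 passed after adjustment, and 10 were lower at an unadjusted p under 0.05, where 3.01% of all rows were lower, with a median of -0.51. Of the 10 erythroid markers, 0 passed after adjustment and 9 were lower at that threshold, with a median of -0.91. Of the 10 platelet and megakaryocyte markers, 0 passed after adjustment and 5 were lower at it, with a median of -0.37. In the other lists at most 2 markers were lower at it (mast cell) and at most 1 higher. The members' differences in this comparison were -0.50 for Lta4h, -0.45 for Alox12, -0.38 for Cysltr2 and -0.33 for Ltb4r1. Alox5ap had -0.31, Alox5 -0.21, Alox15 -0.08, Pla2g4a -0.07, Cysltr1 0.09 and Ltc4s 0.19.

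The 9 eosinophil markers had means of 8.04 to 8.42 in the control, 5.95 to 6.37 in the active and 6.02 to 6.68 in the resting arrays. Of these, 9 and 8 fell, beside 12.1% and 10% of all rows lower. Prg2, the eosinophil major basic protein, had differences of -3.07 (adjusted p = 5.7e-04 in limma) and -2.60 (adjusted p = 0.0022), beside the -1.59 and -1.51 of Alox15. The 10 platelet and megakaryocyte markers had means of 9.10 to 9.39, 7.29 to 7.70 and 7.81 to 7.96, and 8 fell in each comparison, beside the same shares of all rows. Itga2b, the platelet integrin, had -2.35 (adjusted p = 4.5e-06) and -1.77 (adjusted p = 2.8e-05), beside the -2.74 and -2.28 of Alox12, whereas the platelet chemokine Pf4 had -0.51 in both (adjusted p = 0.084 and 0.097). Alox15 is also a macrophage gene, and the monocyte and macrophage markers rose (medians 0.66 and 0.60). The erythroid markers fell further than the platelet list (medians -3.66 and -2.61 against -1.85 and -1.53). Which cells held the signal of Alox12 or Alox15 was not tested.

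The 10 fibroblast and repair matrix markers had means of 8.11 to 8.52 in the control, 10.10 to 10.35 in the active and 10.03 to 10.44 in the resting arrays. In each comparison 9 of 10 rose, with medians of 1.80 and 1.73, beside 11.8% and 9.08% of all rows higher. The 12 monocyte and macrophage markers had means of 7.91 to 8.29 in the control, 8.64 to 8.86 in the active and 8.53 to 8.93 in the resting arrays. Of these, 8 and 7 rose and none fell, beside 11.8% and 9.08% of all rows higher. Among them were Adgre1, which encodes F4/80 (0.80 and 0.92), and the lysosomal Cd68 (0.68 and 0.62), beside Cysltr1 (0.64 and 0.55) and Dpep2 (1.55 and 1.46). Of the 9 mast cell markers, 1 rose and 4 fell in the active comparison, and 1 rose and 2 fell in the resting comparison, so their means (5.98 to 6.28, 5.86 to 6.16 and 5.85 to 6.0) average genes that went opposite ways. The 10 erythroid markers all fell (9.95 to 10.35, 6.23 to 7.41 and 7.35 to 7.78), as did 9 of 10 B lymphocyte markers in each comparison, beside 12.1% and 10% of all rows lower. The 12 skeletal muscle genes had means of 11.18 to 11.48, 11.65 to 11.95 and 11.43 to 11.80. Of these, 6 rose in the active and 1 in the resting comparison, and none fell. For the labelled tissue, 10 bone and osteoblast genes had means of 8.29 to 8.64, 8.38 to 8.82 and 8.30 to 9.22. In the control, Sp7, an osteoblast transcription factor, was at 8.41 and Bglap, osteocalcin, at 5.93, under the medians of all rows in the 9 arrays (6.34 to 6.40). The other bone markers lay above these medians in the control, from 7.29 (Sost) to 11.48 (Col1a1). Of the bone list, 1 rose and 1 fell in the active comparison, and 3 rose and 0 fell in the resting comparison. Log2 array signals have no true zero, and no marker was at 0. The part of cell numbers in the members' differences was not tested.

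**Figure D4:**
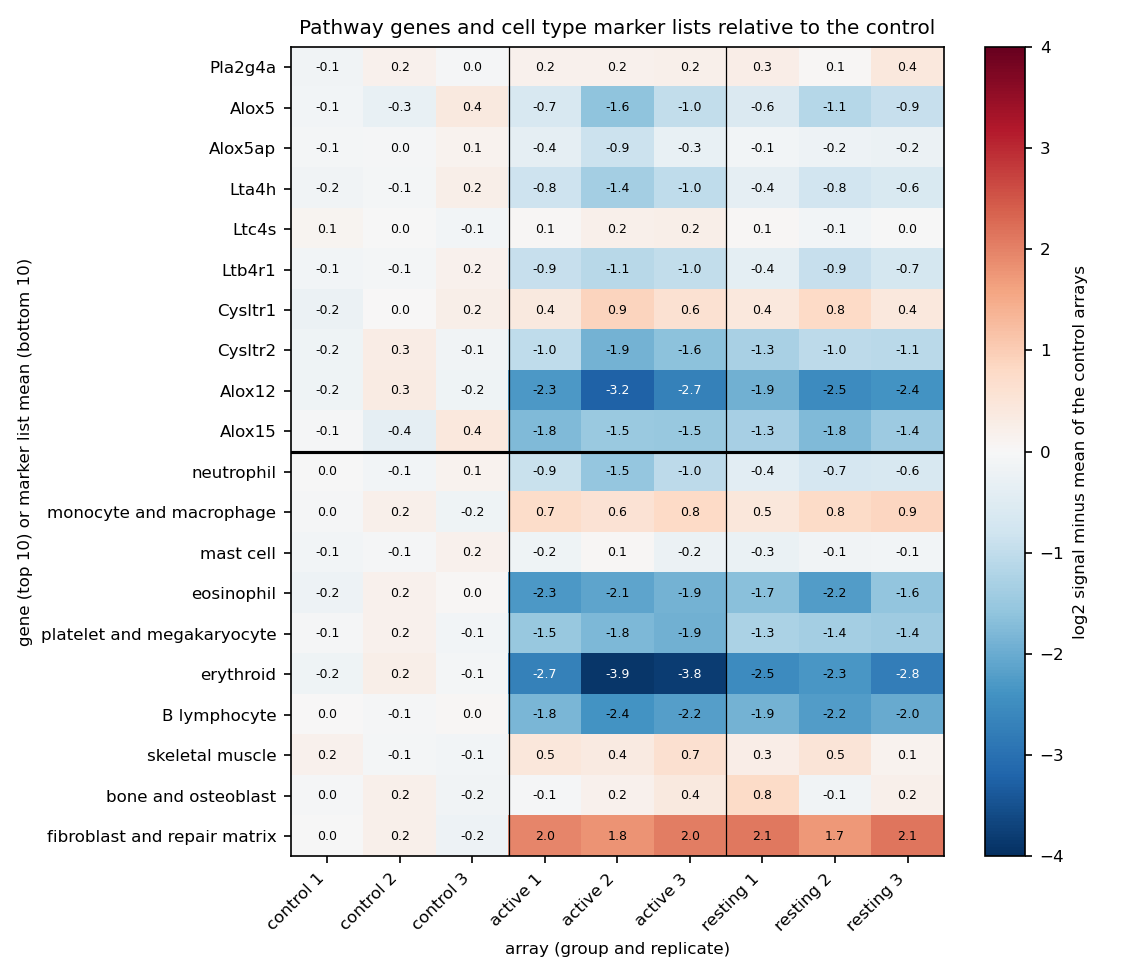
Log2 signal minus the mean of the 3 control arrays, by array (columns), for the 10 genes (upper rows) and the means of 10 marker lists (lower rows); blue is lower and red higher than the control. Alox12, Alox15 and Cysltr2 are blue in all 6 fractured arrays, as are the neutrophil, eosinophil, platelet, erythroid and B lymphocyte lists, whereas Cysltr1, the monocyte and macrophage list and the fibroblast and repair matrix list are red.

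The genes whose pattern over the 9 arrays lay closest to called members were found by the root mean square distance of centred log2 signals. For Alox5 these were Hvcn1 (0.105), Padi4 (0.122) and Tnfsf13b (0.142). For Alox5ap they were Nelfb (0.066), Inpp4a (0.069) and Pstpip1 (0.074), and for Lta4h they were Arhgdib (0.077), Tifab (0.089) and Cyp4f18 (0.091), which is itself one of the 43 further genes. Dnase1l3 (0.121), Tab3 (0.141) and Ccnb1 (0.146) lay closest to Cysltr2.

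Alox12 was nearest to Cd226 (0.147), Epb4.1 (0.187) and Cpox (0.192), and Alox15 to Tmem71 (0.139), Tal1 (0.181) and Rnu3a (0.183). For Cysltr1 the nearest were Prl2c5 (0.074), Mab21l1 (0.113) and Tmem219 (0.115). Each distance was taken over the same 9 arrays and all 3 groups.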

How the data were processed

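Gene expression was measured in the tibia of 9 mice, 3 arrays in each of 3 groups. Groups were taken from the sample titles. The deposited values are log2 signals normalized by the authors. Their methods name GeneSpring GX 10 and an analysis of entities flagged as present, whereas the tables used here hold low signals too and no flags. The log2 scale was inferred from their range (2.31 to 13.81). The sources used here do not name the normalization algorithm, the base of the logarithm or the build. The gene-named table has 24367 rows, and all of them recur with identical values in the table of 41345 probe sets, in which replicate numbers differ within the active and the resting group. Replicate numbers here are those of the gene-named table.

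The 3 groups entered limma 3.58.1 under R 4.3.3 (lmFit and eBayes, 1 fit of 9 arrays, 6 residual degrees of freedom), with Benjamini-Hochberg adjustment over all rows. Two-sided exact permutation tests were added for single genes. The limma fit was also run on simulated data with known differences. As alternatives, p-values were taken from the methods' t-test (unpaired, equal variance), from all probe sets, from the 6 arrays compared and from a fit with the replicate number as a block. The values were also centred on medians, quantile normalized, weighted by array, fitted with a trend, averaged over a gene's rows, filtered of the 40% of rows with the lowest mean, and refitted without each array. The study's own calls used an unadjusted p and a fold of 1.5.

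The 10 members, the 43 further genes and the 10 marker lists were chosen with earlier results of these data known. Of the further genes, those past an adjusted p under 0.05 against the control or an unadjusted p under 0.05 between active and resting are named with values, and of each marker list up to 2 genes, those listed first. Ltb4r2, Alox12e, Cotl1 and Mapkapk2 are named outside this rule and were chosen after their values were seen. For each called member except Ltb4r1, whose list is not reported here, the 3 nearest symbols are given. Promoters and gene positions came from RefSeq on GRCm38.p6.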

Additional observations from a re-analysis of the deposited data

How the results depend on the processing

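No processing alternative reversed a member's difference. Of the members' values under these alternatives, 92 of 99 kept their side of the threshold against the control in the active comparison, 88 of 99 in the resting comparison and 99 of 99 between active and resting. Between active and resting 0% of all rows passed in limma, so the last count does not measure how stable a call is. The methods' t-test with adjustment called 3 members in the active and 2 in the resting comparison, against 8 and 7 in limma. Of the 43 further genes it called 7 and 5, against 12 and 10. Between active and resting, 0 members passed it at an unadjusted p under 0.05. The shares of all rows that passed under the alternatives are not given here, and those of limma do not carry over. These counts therefore have no background beside them. With p-values adjusted over all probe sets, 4 members passed in the resting comparison. The unadjusted count between active and resting was 1 with the probe set table, 1 with only the 6 arrays compared and 1 with array weights. The cause was not tested. Dropping low rows left no value for Cysltr1, whose resting call was also lost with quantile normalization (adjusted p = 0.057 in limma) and median centring (0.054). The resting call of Alox5 was lost with the mean of its rows (-0.66, adjusted p = 0.0502). The active call of Alox5ap was lost with the probe set table (0.06) and with only the 6 arrays compared (0.059), and the probe set table also ended the resting calls of Alox5 (0.072), Lta4h (0.069) and Cysltr1 (0.079).

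With single arrays left out, 6 to 8 members passed in the active comparison, 4 to 7 in the resting comparison and 0 to 5 at an unadjusted p between active and resting, with 9 to 12 and 6 to 11 of the further genes. The shares of all rows in these refits are not given here. The resting count was 4 without resting replicate 2 or 3, and the further genes' resting count was 6 without control replicate 3, resting replicate 2 or resting replicate 3. Small differences changed sign: Ltc4s ran from -0.07 to 0.03 between resting and control, and between active and resting Pla2g4a ran from -0.16 to 0.02, Alox5 from -0.43 to 0.06, Cysltr1 from -0.04 to 0.21 and Alox15 from -0.20 to 0.02.

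With the replicate number as a block, 8, 7 and 0 members and 10, 9 and 0 of the further genes passed in the 3 comparisons, 2 members at an unadjusted p, and no member's call changed. Arrays of the same number had deviations that correlated between -0.25 and 0.17, and the tables number the arrays differently, so the numbers do not pair the samples.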
